A study of Mus musculus with 15 samples.

Results

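The CXC chemokines of the mouse were followed across 5 groups of MH-S cells by the counts of 8 genes, Cxcl1, Cxcl2, Cxcl3, Cxcl5, Cxcl9, Cxcl10, Cxcl11 and Cxcl16, chosen by name out of 78317 gene identifiers. MH-S is an SV-40-transformed line of murine alveolar macrophages, so all groups share 1 transformed line and no group holds primary cells. Each group had 3 libraries and was exposed for 24 h to medium alone (M0), to calcium phosphate microrods (CaP) or silica microrods (SiO2) at 0.1 mg/mL, to the M1 stimulus of 20 ng/mL IFN-γ and 1 µg/mL LPS, or to the M2 stimulus of 20 ng/mL IL-4. The rods, named CaP-Alg-Prot/CMC(3DL) for calcium phosphate and SiO2-Alg-Prot/CMC(3DL) for silica, share their alginate, protamine and carboxymethyl chitosan components and carry different nanoparticulate frameworks, and every rod well received its own particle batch. Per the study, cells of a single passage filled the wells, so p-values measure the spread between wells and, for the rods, between particle batches, not between cultures, and part of it may be technical.

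CXC chemokines are small secreted proteins that guide leukocytes through G protein-coupled receptors, and macrophages of the airspace are among the cells that release them early after bacterial contact. Members with an ELR motif before the first cysteines, here Cxcl1, Cxcl2, Cxcl3 and Cxcl5, bind Cxcr2 and attract neutrophils, and their genes are known targets of NF-κB downstream of Toll-like receptors. Cxcl9, Cxcl10 and Cxcl11 lack that motif, bind Cxcr3 on activated T and NK cells and are known as interferon-induced. Cxcl16 is made as a membrane protein, serves as a scavenger receptor and, once shed, as the ligand of Cxcr6.

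Libraries held in total between 8459643 and 68750050 counts (median 14879931), so that 3 counts, taken as the floor, stood for 0.0429 to 0.395 CPM, the count relative to the scaled library size. All 6 macrophage markers examined were tested, with a summed level of 1416 to 3626 CPM per library. Of 6 alveolar macrophage markers 3 were tested in the model of all 15 libraries, with a sum over the list of 3.03 to 6.25 CPM outside M2, and Siglecf, Pparg and Chil3, markers of the resident cell, were too low to be tested in it. Neutrophil, T cell, B cell, epithelial and fibroblast lists had no tested member and summed to at most 1.71 CPM, and the endothelial list to at most 1.77 CPM. M0 replicate 3, M2 replicate 2 and SiO2 replicate 2 stood apart from the rest on the second principal component, at -42.7, -43.9 and -21.7 against -4.36 or above. These are bulk samples, in which fewer expressing cells and less RNA per cell cannot be told apart.

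Of the 8 genes only Cxcl2 and Cxcl10 passed the filter on low counts, which asked for more than 0.672 CPM in 3 libraries of the 15-library model and more than 0.494 CPM in the model of the 9 M0, CaP and SiO2 libraries. Both were highest in M1 and lowest in M2. Cxcl3 was also highest in M1 and exceeded the filter in 2 M1 libraries. Cxcl16 was near 0.4 CPM in M0, M1 and CaP and lowest in M2. Cxcl1, Cxcl5 and Cxcl9 did not exceed 3 counts in any library, and Cxcl5 had no count at all.

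**Figure D1:**
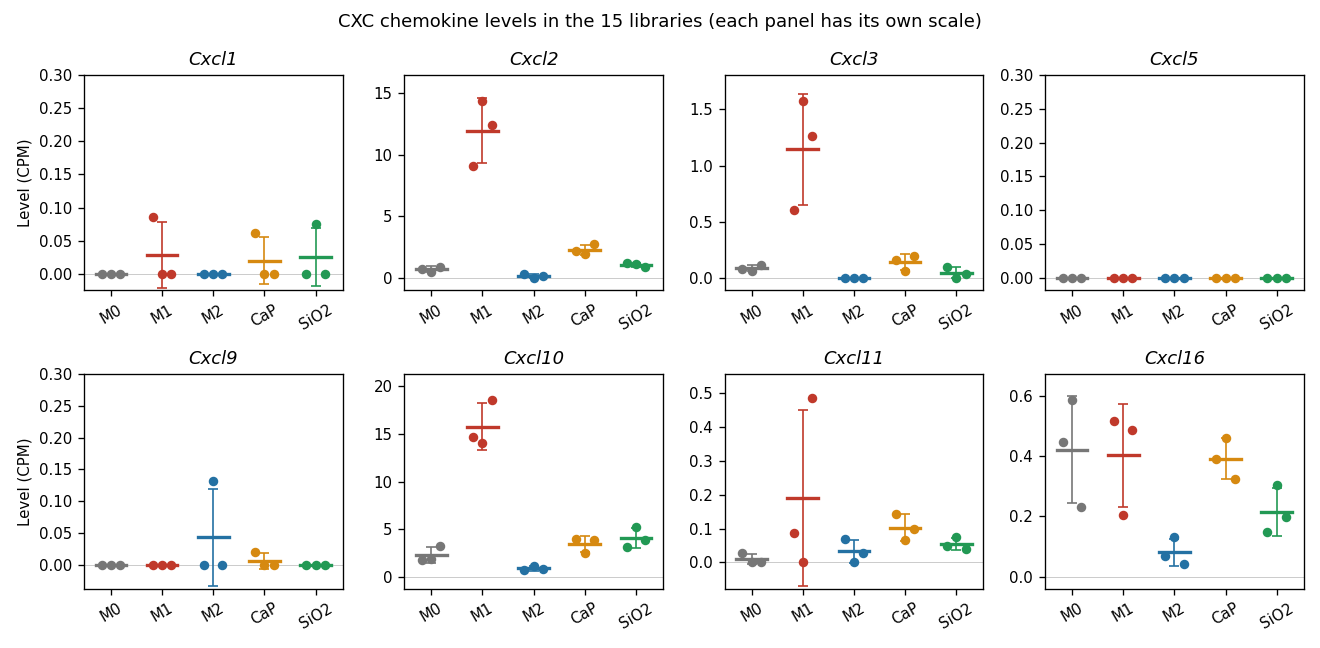
Levels of the 8 CXC chemokine genes in CPM (y axis, a linear scale of its own in each panel) by group, with 1 point per library, a thick bar at the mean and thin bars of ± SD (n = 3). Cxcl2, Cxcl3 and Cxcl10 in the 3 M1 libraries lie above every library of the other groups, Cxcl2 is next highest in CaP, and Cxcl1, Cxcl5 and Cxcl9 lie at or near 0 throughout.

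Cxcl2 (ENSMUSG00000058427), the neutrophil attractant also known as MIP-2, was the ELR member with the most counts. Its level in M0 was 0.764, 0.455 and 0.927 CPM, from 29, 7 and 8 counts. In M1 it was 9.11, 14.4 and 12.4 CPM, from 106, 210 and 128 counts. The CaP libraries held 2.17, 1.97 and 2.77 CPM. These lay between the M1 and the M0 values and overlapped neither. The SiO2 libraries held 1.22, 1.13 and 0.872 CPM, the last of which fell inside the M0 range. In M2 the level was 0.341, 0 and 0.157 CPM, from 5, 0 and 11 counts, below every M0 library. Ordered by mean, Cxcl2 stood at 12.0 ± 2.65 CPM in M1, 2.30 ± 0.413 in CaP, 1.08 ± 0.183 in SiO2, 0.715 ± 0.239 in M0 and 0.166 ± 0.171 in M2 (SD, n = 3), and among neighbours in that order only SiO2 and M0 overlapped.

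Cxcl3 (ENSMUSG00000029379), a close relative of Cxcl2 with the same receptor, had 7, 23 and 13 counts in the M1 libraries, which gave 0.602, 1.57 and 1.26 CPM. Every M1 library was above all others. M0 libraries held 3, 1 and 1 counts (mean 0.0866 ± 0.0262 CPM), CaP libraries 8, 1 and 8 counts (0.143 ± 0.0692 CPM), SiO2 libraries 2, 0 and 1 counts (0.0458 ± 0.0492 CPM), and M2 libraries none (SD, n = 3). Apart from M1, neighbouring groups in the order of means overlapped. Over the summed counts, 43 in M1 against 5 in M0, the ratio of M1 to M0 was 14.6 with a 95% counting interval of 5.79 to 47.2. Between CaP and M0, 17 against 5 counts, it was 2.02, and its interval of 0.717 to 7.02 included 1. These intervals and all floors cover counting error only, because reads of amplified cDNA are not independent molecules.

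Cxcl1 (ENSMUSG00000029380), known as KC, had 1 count in an M1 library, 3 in a CaP library and 1 in an SiO2 library, 5 in all 15 together. Cxcl5 (ENSMUSG00000029371), known as LIX and in the lung mainly an epithelial product, had 0 counts, and 3 counts over all libraries would have been 0.00848 CPM. No difference between groups was detectable for either at this depth.

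The promoters of the ELR genes are shown because the members with counts, Cxcl2 and Cxcl3, were both highest in M1. The windows hold the 250 bases before the RefSeq transcription start on GRCm38.p6, 5′ to 3′ on the gene's strand, for Cxcl1 at chr5:90890995-90891244, Cxcl2 at chr5:90903649-90903898 and Cxcl3 at chr5:90785851-90786100, all on the plus strand. Capitals mark matches to the κB consensus, the letters that NF-κB dimers bind, on either strand.
Cxcl1: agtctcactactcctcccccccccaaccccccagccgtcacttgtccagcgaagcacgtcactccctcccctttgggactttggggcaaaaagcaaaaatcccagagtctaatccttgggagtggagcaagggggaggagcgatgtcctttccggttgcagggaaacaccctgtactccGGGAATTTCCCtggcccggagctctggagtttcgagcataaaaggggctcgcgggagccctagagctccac
Cxcl2: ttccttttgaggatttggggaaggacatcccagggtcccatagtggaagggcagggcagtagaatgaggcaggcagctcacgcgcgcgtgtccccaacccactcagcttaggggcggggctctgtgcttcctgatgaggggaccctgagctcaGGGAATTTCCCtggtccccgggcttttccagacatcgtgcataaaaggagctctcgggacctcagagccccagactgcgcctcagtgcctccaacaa
Cxcl3: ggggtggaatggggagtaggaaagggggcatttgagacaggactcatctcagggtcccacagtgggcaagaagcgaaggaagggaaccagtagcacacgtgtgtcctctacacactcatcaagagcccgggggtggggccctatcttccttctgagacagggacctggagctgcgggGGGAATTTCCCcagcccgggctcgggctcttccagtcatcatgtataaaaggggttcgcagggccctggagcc
Each window held the same 11 letters, GGGAATTTCCC, which match the consensus in both directions with an overlap. They lay 71 to 61 bases before the start in Cxcl1, 97 to 87 in Cxcl2 and 73 to 63 in Cxcl3. Of 32817 promoter windows of the same length, 3.9% held the consensus. The match was present at Cxcl1, which had 1 count in the M1 libraries, as well as at Cxcl2, which had 444.

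Cxcl10 (ENSMUSG00000034855), known as IP-10, was the only gene among Cxcl9, Cxcl10 and Cxcl11 with a measurable level. It stood at 1.76, 1.89 and 3.24 CPM in M0, from 67, 29 and 28 counts. In M1 it was 14.7, 14.1 and 18.6 CPM, from 171, 206 and 191 counts, above every other library. In CaP it was 3.94, 2.50 and 3.89 CPM. One of these lay inside the M0 range, whose highest value came from M0 replicate 3, a library that stood apart. In SiO2 it was 3.18, 5.22 and 3.88 CPM, with 1 library inside the M0 range. The M2 libraries held 0.682, 1.18 and 0.830 CPM, all below M0. By mean the order was M1 at 15.8 ± 2.43 CPM, SiO2 at 4.09 ± 1.04, CaP at 3.44 ± 0.817, M0 at 2.30 ± 0.821 and M2 at 0.899 ± 0.258 (SD, n = 3). SiO2 overlapped with CaP, and CaP with M0.

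Cxcl9 (ENSMUSG00000029417), known as MIG, had no count in any M1, M0 or SiO2 library, and 1 count each in an M2 and a CaP library. Over the 3 M1 libraries a count of 0 allows a level of up to 0.0821 CPM (3 counts). Cxcl11 (ENSMUSG00000060183), known as I-TAC, had 1, 0 and 5 counts in M1, 7, 1 and 4 in CaP, 1 in each SiO2 library, 1, 0 and 2 in M2 and 1, 0 and 0 in M0. Its groups overlapped between neighbours in the order of means, and the 25 counts do not settle an order. In CPM every CaP and SiO2 library was above every M0 library, from 1 to 7 counts against 0 or 1. Against M0, its ratio of summed counts was 7.14 in CaP (95% counting interval 1.06 to 305), and without a filter edgeR gave a log2 fold change of 2.52 with SE 1.02 and adjusted p = 0.392.

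The upstream windows of Cxcl10 and Cxcl9 are shown because both are Cxcr3 ligands while only Cxcl10 had counts in M1. They lie on the minus strand of GRCm38.p6, Cxcl10 at chr5:92348890-92349139 and Cxcl9 at chr5:92328080-92328329, and are printed 5′ to 3′ on that strand. Capitals mark κB matches and matches to the core of the interferon-stimulated response element (ISRE), GAAA and GAAA with any 2 bases between them, which IRF and STAT complexes bind.
Cxcl10: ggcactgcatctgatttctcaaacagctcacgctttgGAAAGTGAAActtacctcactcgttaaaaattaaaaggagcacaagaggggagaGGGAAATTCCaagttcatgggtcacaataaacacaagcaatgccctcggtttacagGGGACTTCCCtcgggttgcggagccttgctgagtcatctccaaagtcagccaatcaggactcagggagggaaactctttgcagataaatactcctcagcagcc
Cxcl9: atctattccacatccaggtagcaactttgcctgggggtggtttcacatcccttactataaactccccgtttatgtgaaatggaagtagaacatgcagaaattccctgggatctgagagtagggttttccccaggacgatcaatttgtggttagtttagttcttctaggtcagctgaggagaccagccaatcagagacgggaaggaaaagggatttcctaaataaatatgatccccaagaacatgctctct
In Cxcl10 the ISRE core GAAAGTGAAA lay 213 to 204 bases before the start, and κB matches lay at 159 to 150 (GGGAAATTCC) and at 103 to 94 (GGGACTTCCC). The ISRE core was found in 2.97% of the 32817 windows. The Cxcl9 window held neither. TATAAA, present in 12.4% of windows, was found 30 to 25 bases before the start of Cxcl3 and 195 to 190 before that of Cxcl9. A match of letters is a description, and its absence says only that these letters are not in this window. RefSeq windows were found for 5 of the 8 genes.

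**Figure D2:**
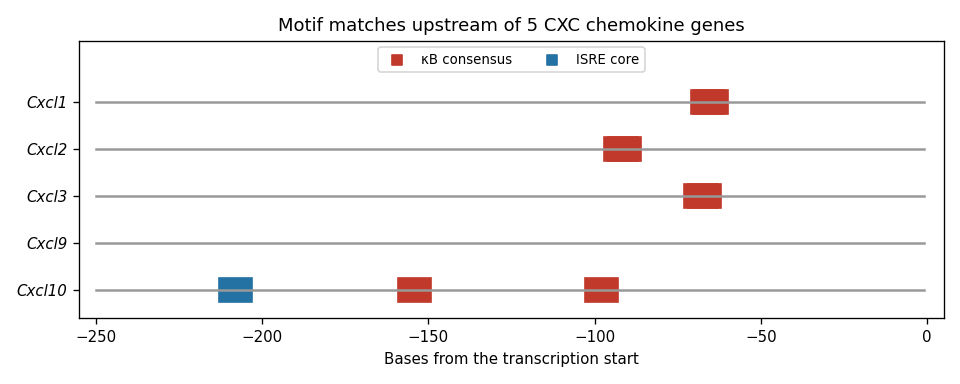
Positions of κB consensus (red) and ISRE core (blue) matches in the 250 bases before the transcription start of 5 CXC chemokine genes, with the distance from the start in bases on the x axis and 1 line per gene. Cxcl1, Cxcl2 and Cxcl3 hold 1 κB stretch each, Cxcl10 holds 2 κB matches and 1 ISRE core, and Cxcl9 holds none.

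Cxcl16 (ENSMUSG00000018920) had 1 to 19 counts per library. Its level was 0.448, 0.585 and 0.232 CPM in M0, 0.516, 0.205 and 0.486 in M1 and 0.390, 0.460 and 0.324 in CaP. These 3 groups overlapped with each other. In SiO2 it was 0.147, 0.303 and 0.198 CPM, below CaP in every library and overlapping with M0. The M2 libraries held 0.0682, 0.132 and 0.0429 CPM, from 1, 1 and 3 counts, below all other libraries. The ratio of summed counts of M0 to M2, 28 against 5, was 8.33 with a 95% counting interval of 3.17 to 27.6. That of M0 to SiO2, 28 against 12, was 2.22 with an interval of 1.09 to 4.79. The fits between libraries did not call this difference. EdgeR without the low-count filter gave a log2 fold change of SiO2 against M0 of -1.14 (SE 0.55, adjusted p = 0.825). DESeq2 gave -1.08 (SE 0.72, adjusted p = 0.789).

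Some of these counts can be shared with other genes. In the GENCODE M21 transcripts, 7.59% of the 31-base stretches of Cxcl2 also occur in Cxcl3, which leaves most of both genes distinct. Cxcl10 overlaps Art3 on the opposite strand (4.47% of its stretches) and Cxcl16 overlaps Zmynd15 (18.5%). Without strand in the counting, reads of these shared stretches cannot be told apart. Art3 had 81 counts over all libraries against 1387 for Cxcl10, with 18 against 124 in M0 and 8 against 77 in M2. Zmynd15 had 0 to 10 counts per library and 58 in all, against 98 for Cxcl16. Its summed counts were 10 in M0, 14 in M1, 3 in M2, 19 in CaP and 12 in SiO2. Like those of Cxcl16, they were fewest in M2, but summed counts are not scaled for depth, which differed between groups. Scaled for depth, the summed counts of Cxcl16 gave 0.452 CPM in M0, the highest group, and 0.375 in CaP. Because reads can be shared with Zmynd15, both the level of Cxcl16 and its differences between groups are uncertain. Cxcl11 shares 42.2% of its stretches, mostly with the opposite-strand gene Gm2673, and RefSeq lists Cxcl11 as a transcribed pseudogene in this build. Gm2673 had 0 counts in every library.

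Per kilobase of the longest transcript, Cxcl10 was the highest member in M1 at 11.7 CPM, followed by Cxcl2 at 6.44, Cxcl3 at 1.13 and Cxcl16 at 0.149 CPM. In M0 Cxcl10 stood at 1.70 CPM per kilobase, Cxcl2 at 0.385, Cxcl16 at 0.156 and Cxcl3 at 0.0853. Per kilobase, the mean of Cxcl3 was thus above that of Cxcl16 in M1 and below it in M0.

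The response to LPS with IFN-γ was assessed by comparing M1 with M0. Both Cxcl2 and Cxcl10 rose, where 14.1% of the 16654 genes tested passed the threshold in either direction and 9.7% rose. A gene was called at an adjusted p below 0.05 in edgeR's quasi-likelihood test and an absolute log2 fold change above 0.5. Cxcl2 rose with a log2 fold change of 4.08 (SE 0.34, 95% interval 3.35 to 4.81, adjusted p = 9.26e-07), which is 16.9-fold. Cxcl10 rose by 2.88 on the log2 scale (SE 0.29, 95% interval 2.26 to 3.49, adjusted p = 1.33e-05), which is 7.34-fold. No M1 library overlapped an M0 library for either gene, and 20.2% of all genes tested were higher in M1 without overlap. Across all genes the median log2 fold change was -0.01. For Cxcl3, which was not tested in the main model, edgeR without the low-count filter gave 3.76 (SE 0.71, adjusted p = 9.54e-06), and its adjusted p over the alternatives that tested it lay between 9.54e-06 and 0.00482. Where the filter was kept, Cxcl3 was tested only through its M1 libraries, the group in which it was high. Without M1 replicate 2 or 3 it was not tested, so this range adds no separate support. The list of markers of neutrophils, which also make Cxcl2, summed to 0.777 to 1.71 CPM in M1 and 0.116 to 0.455 CPM in M0, with S100a8 at 0.796 and 0.0305 CPM, S100a9 at 0 in both, and no tested member. Per the study the wells were seeded with the MH-S line, and no neutrophils were described in them. The part of these marker genes in the result was not tested.

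IL-4 was compared with medium in M2 against M0, where 4.13% of genes were called and 2.13% fell. Cxcl10 fell by 1.33 on the log2 scale (SE 0.35, 95% interval -2.09 to -0.58, adjusted p = 0.0493). The adjusted p lay just below the threshold and ranged from 0.0111 to 0.279 over the alternatives. Cxcl2 had a log2 fold change of -1.97 (SE 0.53, 95% interval -3.10 to -0.84, adjusted p = 0.0501), just above the threshold, with a range of 0.00803 to 0.416 over the alternatives. Of all genes tested, 8.2% were lower in M2 without overlap. M0 and M2 libraries did not overlap for Cxcl10 or Cxcl2. Without M0 replicate 3, M2 replicate 2 and SiO2 replicate 2, neither was called, at adjusted p = 0.0785 for Cxcl10 and 0.103 for Cxcl2. With the replicate number as a block neither was called, at 0.0607 and 0.0895. For Cxcl16, edgeR without the filter gave -2.82 (SE 0.79, adjusted p = 0.0220) and DESeq2 -2.88 (SE 0.89, adjusted p = 0.0288), the only fits that tested it. Zmynd15, which overlaps Cxcl16, had 3 counts in M2 and 10 in M0, and its part in this difference was not tested.

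Against M0, neither rod type moved a CXC chemokine past the threshold, where 0.409% of the 16621 genes were called for CaP and 0.0602% for SiO2. Beside these 68 and 10 genes, 2985 and 1540 had an unadjusted p below 0.05. DESeq2, given 45324 genes with counts, called 608 for CaP and 123 for SiO2. Among them was 1 CXC chemokine, Cxcl2, for CaP and none for SiO2. For Cxcl2 the log2 fold change of CaP against M0 was 1.72 (SE 0.30, 95% interval 1.04 to 2.40), its unadjusted p was 2.39e-04 and its adjusted p 0.0502. All 3 CaP libraries were above all 3 M0 libraries, and 7.29% of all genes tested were higher in CaP without overlap. The adjusted p ranged from 0.00306 to 0.257 over the alternatives, and Cxcl2 was called with DESeq2 (0.00306), without the low-count filter (0.0427), in the model of all 15 libraries (0.0427) and without CaP replicate 1 (0.0341). For SiO2 the Cxcl2 log2 fold change was 0.59 (SE 0.35, 95% interval -0.19 to 1.37, adjusted p = 0.655).

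Cxcl10 showed log2 fold changes against M0 of 0.72 for CaP (SE 0.32, 95% interval 0.01 to 1.43, adjusted p = 0.273) and 0.91 for SiO2 (SE 0.32, 95% interval 0.19 to 1.64, adjusted p = 0.458). Neither passed the test. Without the 3 libraries that stood apart the values were 0.94 (adjusted p = 0.310) and 0.98 (adjusted p = 0.931). Both comparisons used the same M0 libraries, so that 1 deviating M0 library moves both.

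The rods were compared directly because they share time and their other components and carry different framework materials. The shared dose is a nominal mass per volume, and per the study the rod types differ in density, so the number of rods reaching a cell was not matched. In CaP against SiO2, 0.0241% of genes were called, 310 had an unadjusted p below 0.05, and no CXC chemokine was called by edgeR or DESeq2. Cxcl2 was 1.13 higher on the log2 scale in CaP (SE 0.28, 95% interval 0.51 to 1.76), at an unadjusted p of 0.00254 and an adjusted p of 1.00. No CaP library overlapped an SiO2 library, and 3.42% of all genes tested were higher in CaP without overlap. The Cxcl10 difference was -0.20 (SE 0.29, 95% interval -0.85 to 0.46, adjusted p = 1.00), which leaves room for a difference in either direction. For Cxcl3 the ratio of summed counts, 17 in CaP against 3 in SiO2, was 3.21 with a 95% counting interval of 0.927 to 17.1.

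Set against M1, both rod groups held less of both genes, among 12.7% of genes called for CaP (9.11% lower) and 10.5% for SiO2 (7.67% lower). Cxcl2 had a log2 fold change of -2.36 in CaP (SE 0.28, adjusted p = 3.30e-05), and in SiO2 at -3.49 (SE 0.32, adjusted p = 2.42e-06). These correspond to levels 5.12-fold and 11.2-fold below M1. Cxcl10 was at -2.16 in CaP (SE 0.26, adjusted p = 7.26e-05) and -1.96 in SiO2 (SE 0.26, adjusted p = 2.19e-04), which is 4.46-fold and 3.90-fold below M1. Rod and M1 libraries did not overlap for either gene. Of all genes tested, 18.9% were lower in CaP and 20.7% in SiO2 without overlap. The comparisons share the M1 libraries.

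**Figure D3:**
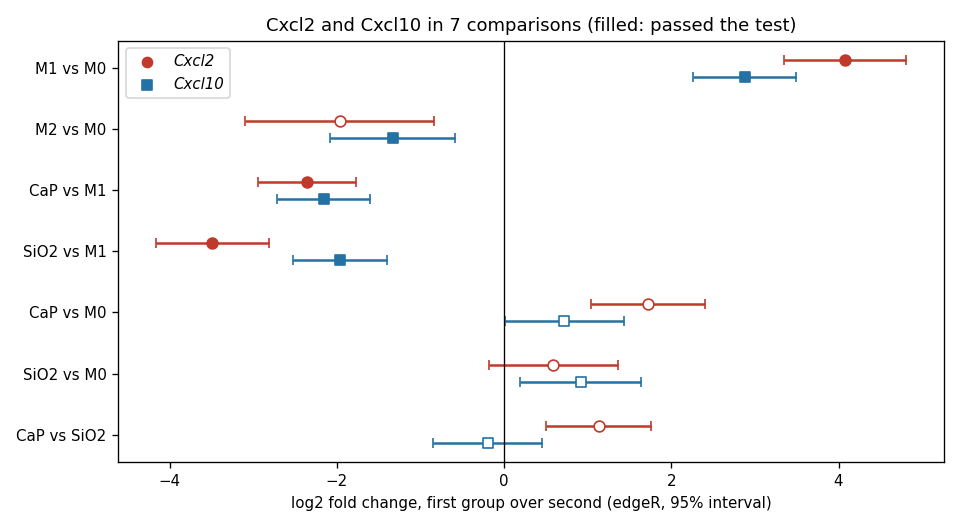
Log2 fold changes of Cxcl2 (red circles) and Cxcl10 (blue squares) in 7 comparisons, first group over second, on the x axis, with 95% intervals from edgeR and filled symbols where the test was passed. Both genes are to the right of 0 for M1 against M0 and to the left for both rod types against M1, while the intervals for the rods against M0 lie near 0 or to its right without a filled symbol.

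Genes of the routes known to lead to these chemokines were read in the same comparison of M1 with M0. Of 16 genes between LPS and NF-κB, 15 were tested, 4 rose and none fell (median log2 fold change 0.45, against -0.01 for all genes). Over all genes tested in this comparison, 14.1% were called and 9.7% rose. Cd14, the LPS co-receptor, rose by 2.32 (adjusted p = 9.35e-08). Nfkbiz, which encodes the IκBζ co-activator of NF-κB targets, rose by 3.22 (adjusted p = 1.21e-06), Nfkbia, the inhibitor IκBα, by 2.13 (adjusted p = 1.09e-06) and Nfkb2, a precursor subunit, by 1.49 (adjusted p = 0.0174). Nfkb2 lost its call when M0 replicate 1 or 3 or M1 replicate 2 or 3 was left out (adjusted p = 0.0596 to 0.0769). Tlr4, the LPS receptor itself, was at 0.46 (adjusted p = 0.230) and Rela at 0.05 (adjusted p = 0.946).

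Of 15 genes of interferon signalling, 14 were tested, 5 rose and 2 fell (median 0.44), beside 14.1% called and 9.7% risen over all genes. Irf7, a factor of the type I interferon response, rose by 2.44 (adjusted p = 0.00110), the kinases Tyk2 and Jak2 by 1.71 (adjusted p = 0.0116) and 1.63 (adjusted p = 0.0418) and the signal transducer Stat2 by 1.05 (adjusted p = 0.0406). Tyk2 held 14.4, 54.0 and 17.1 CPM in M1 against 9.64, 8.91 and 7.41 in M0, and without M1 replicate 2, the highest, its log2 fold change was 0.84 (adjusted p = 0.0459). Jak2 lost its call without any 1 of the 6 libraries (adjusted p = 0.0582 to 0.158), and Stat2 without any but M1 replicate 1 (0.0799 to 0.173) and without the 3 libraries that stood apart (0.0501). Ifngr1, the ligand-binding chain of the IFN-γ receptor, fell with a log2 fold change of -1.03 (adjusted p = 0.00197). Irf1, a factor induced early by IFN-γ, fell too, from a mean of 7.25 to 4.22 CPM (log2 fold change -0.77, adjusted p = 0.0290), and lost its call without any 1 library but M0 replicate 1 (adjusted p = 0.0624 to 0.0956). All wells were taken at 24 h, and earlier times were not analysed here. Against M0, neither rod type changed a gene of either route past the threshold, with medians of 0.34 (CaP) and 0.09 (SiO2) for the LPS route and 0.05 and -0.09 for the interferon route. In M2, Cd14, Nfkbia and Nfkbiz fell, with log2 fold changes of -2.68, -0.64 and -1.62, and Irf7 rose by 2.51. Nfkbia lost this call without any 1 library but M0 replicate 1 (adjusted p = 0.0572 to 0.136) and without the 3 libraries that stood apart (0.122).

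**Figure D4:**
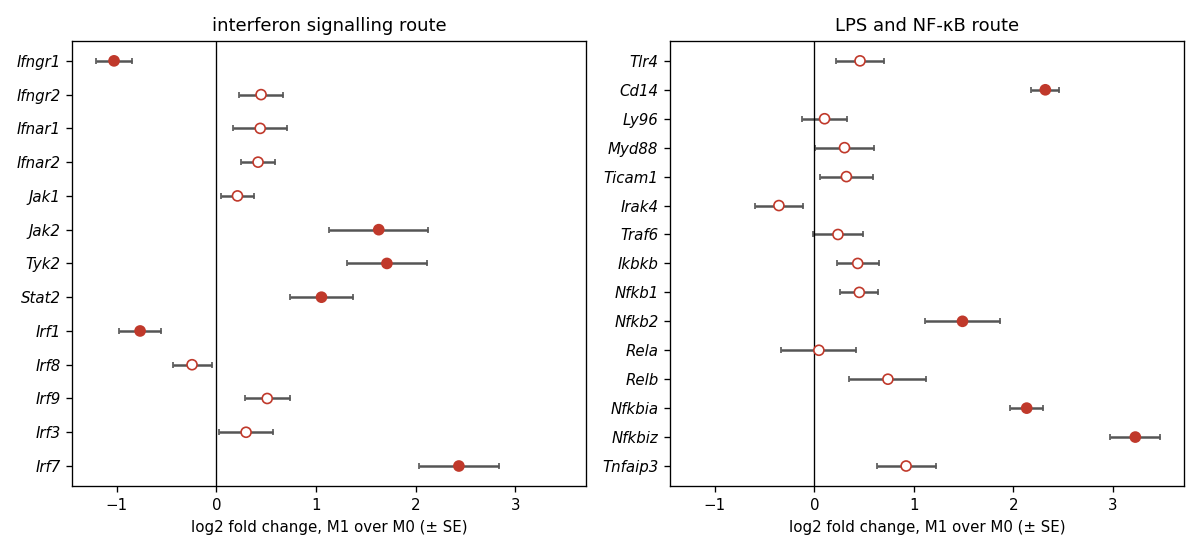
Log2 fold changes of M1 over M0 (x axis, ± SE from edgeR) for interferon signalling genes (left) and 15 genes of the LPS and NF-κB route (right), filled where the test was passed. Irf7 and Nfkbiz lie farthest to the right, and Ifngr1 and Irf1 are the filled points left of 0.

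Of 8 CXC receptor genes 3 were tested, Cxcr2, Cxcr3 and Cxcr5. Cxcr3, the receptor of Cxcl10, fell in M1 from a mean of 10.1 to 1.94 CPM (log2 fold change -2.34, SE 0.26, adjusted p = 3.62e-05) and in M2 to 1.73 CPM (log2 fold change -2.41, SE 0.25, adjusted p = 6.05e-05). Cxcr2, the receptor of the ELR members, held 7.74, 16.2 and 9.27 CPM in M0 and 10.3, 48.2 and 9.72 CPM in M1. The difference did not pass the test (log2 fold change 1.06, SE 0.64, adjusted p = 0.303) and rested on M1 replicate 2, without which the log2 fold change was -0.14 (adjusted p = 0.912). Cxcr5 was at 0.33 in M1 against M0 (adjusted p = 0.510). Cxcr6, the receptor of Cxcl16, was not tested and averaged at most 0.0434 CPM in any group. Against M0 no receptor passed the test in CaP or SiO2, with Cxcr3 at log2 fold changes of -0.33 and -0.18.

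Of 7 further CXC ligand genes, Pf4 (platelet factor 4, Cxcl4) and Cxcl14, a constitutively expressed chemokine of epithelia, were tested. Pf4 averaged 225 CPM in M0 and 121 CPM in M1 and fell (log2 fold change -0.90, SE 0.21, adjusted p = 0.0108). Cxcl14 averaged 82.9 CPM in M0, 42.4 in M1 and 20.7 in M2 and fell in both, with log2 fold changes of -0.97 (SE 0.18, adjusted p = 0.00264) and -1.98 (SE 0.19, adjusted p = 2.42e-05). The direction in M1 was opposite to that of Cxcl2 and Cxcl10. In M2 Pf4 was at -0.62 (adjusted p = 0.128), and neither gene passed the test for either rod type against M0.

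Over the 15 libraries, the log2 CPM of Cxcl2 and Cxcl10 correlated with Pearson's r = 0.907, a description over libraries of which the 3 M1 libraries were highest for both. The genes with the pattern most like Cxcl2 were Tnf (r = 0.963) and Clec4n (r = 0.959). Tnf averaged 26.7 CPM in M0, 113 in M1, 11.2 in M2, 52.2 in CaP and 36.0 in SiO2, the same order of groups as Cxcl2. Those most like Cxcl10 were Spryd7 (r = 0.970), Fth1 (r = 0.961) and Clec4e (r = 0.956), of which Fth1, the ferritin heavy chain, averaged 5292 CPM in M0, 19589 in M1, 3730 in M2, 7933 in CaP and 8442 in SiO2.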

How the data were processed

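RNA of 15 wells of MH-S cells was measured by Smart-seq2. Per the methods, the authors ran the nf-core/rnaseq pipeline with its STAR and Salmon route on paired-end reads and Ensembl gene models (GRCm39 in the submitters' processing notes). They deposited raw counts per Ensembl gene identifier, not normalized. These may be rounded estimates, and strand settings were not given in the sources used here. Symbols for 51487 of 78317 identifiers came from a reference table of mouse gene names. All columns were used.

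Groups were compared with edgeR 4.0.16 in R 4.3.3 (TMM scaling, filterByExpr by group, quasi-likelihood test, Benjamini-Hochberg adjustment over all genes tested). Models of 15 libraries (M1 and M2 against M0, rods against M1) and of the 9 M0, CaP and SiO2 libraries (rods against M0 and each other, as in the study) held no replicate term. Levels are CPM on TMM-scaled totals. DESeq2 1.42.0, DESeq2 size factors, other filters, thinned counts, a replicate block, the legacy quasi-likelihood, other libraries in the model and leaving out libraries were the alternatives. Leaving out libraries for the list genes was chosen after seeing the data. Tests were tried on simulated data. With 3 against 3 libraries an exact two-sided permutation test cannot go below 0.1, so model p-values are given.

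Replicate libraries differed by more than sampling noise in each of 15 pairs. Deviations of same-numbered M1 and M0 libraries correlated at 0.292, 0.275 and 0.206. Same-numbered libraries elsewhere reached 0.604 (replicate 2 of CaP and SiO2) and -0.704 (replicate 3 of M2 and M0). These values do not establish a pairing, and the main models held none. The replicate block changed no call of a CXC chemokine in M1 against M0. The numbers come from the labels, which do not say what a number marks.

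The genes and lists were chosen with earlier results of these data known. All 8 genes are named in every group, list genes where called (ligands and receptors where tested), and for each tested member the 3 genes of highest Pearson correlation of log2 CPM (prior count 2). Some items of these lists are not reported here, in the text or the figures, and counts over a list include them. Transcript lengths and shared sequence come from GENCODE M21 and promoters from RefSeq on GRCm38.p6, a build other than that of the counts, which served for sequence only.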

Additional observations from a re-analysis of the deposited data

How the results depend on the processing

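For M1 against M0 and for both rod types against M1, 2 or 3 CXC chemokines were called under every alternative that tested any. The third was Cxcl3 where it was tested, and leaving out 1 library gave 2 to 3. Where the filter was kept, Cxcl3 was tested only through its high M1 libraries, so these calls add no separate support. With at least 10 counts in every library none was left to test. In M2 against M0, where Cxcl10 alone was called, its call held in 1 of 6 fits without 1 library and in 3 of 9 other alternatives, and the single call was Cxcl2 without M0 replicate 2 and Cxcl16 without the low-count filter. There DESeq2 called 3, among 955 genes called of 52647, and the legacy quasi-likelihood 2, among 559 of 16654. DESeq2 size factors, the replicate block, thinned counts, the removal of the 3 libraries that stood apart and the 6 compared libraries alone each gave 0. Leaving out 1 library gave 0 to 2 there, with 0 without M0 replicate 1 or 3 or M2 replicate 1 or 3 and 2 without M2 replicate 2. In CaP against M0, where 0 were called, DESeq2, the fit without a filter and the model of all 15 libraries each gave 1. These fits called 608, 178 and 109 genes in all. Leaving out 1 library gave 0 to 1, with 1 without CaP replicate 1, where 743 genes were called. In SiO2 against M0 and CaP against SiO2 the count was 0 under every alternative that tested any. No direction reversed, and the causes were not tested. All 40 group levels moved by less than 1 SD under DESeq2 size factors.

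The replicate block changed no call but that of M2 against M0 (from 1 to 0). Same-numbered libraries correlated at -0.0572, -0.539 and -0.704 in that comparison, and the correlations were not all above 0.1 in any comparison but M1 against M0. Calls over all genes moved more: 1511 to 3610 for M1 against M0 (2342), 98 to 1361 for M2 against M0 (687), 1350 to 3882 for CaP and 1114 to 2434 for SiO2 against M1 (2108 and 1741), 7 to 743 for CaP against M0 (68), 0 to 123 for SiO2 against M0 (10) and 1 to 15 for CaP against SiO2 (4). Depth limits 6 of the 8 genes, of which none exceeded 23 counts in a library.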

Other observations

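Genes that set how long chemokine mRNA lasts and enzymes that cleave the secreted proteins were also read. Of 8 genes of mRNA decay and stability, all tested, 3 rose and 1 fell in M1 against M0 (median log2 fold change 0.44). Of all genes tested there, 14.1% were called and 9.7% rose, with a median of -0.01. Zfp36, which encodes tristetraprolin, a factor that destabilizes AU-rich mRNA, rose by 2.44 (SE 0.49, adjusted p = 0.00452). Zc3h12a, the endonuclease regnase-1, rose by 1.97 (SE 0.25, adjusted p = 1.21e-04), and Arid5a, which protects some of the same mRNAs, by 2.44 (SE 0.43, adjusted p = 0.00168). Zfp36l2, of the tristetraprolin family, fell with a log2 fold change of -1.06 (SE 0.32, adjusted p = 0.0386), although its M1 and M0 libraries overlapped. It was not called without M0 replicate 1, where the log2 fold change was -0.58 (adjusted p = 0.223), or without M1 replicate 2 or 3 (0.145 and 0.153). In M2, where 4.13% of genes were called, only Zfp36l1 passed the test, at 1.26 (SE 0.32, adjusted p = 0.0444), a call lost without any 1 library but M2 replicate 2 (adjusted p = 0.0969 to 0.196), and none did for either rod type against M0.

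Of 6 chemokine-cleaving proteases 4 were tested, of which 1 rose and none fell in M1 against M0 (median log2 fold change -0.49, against -0.01 and the 14.1% called over all genes). Mmp9, gelatinase B, rose in M1 from a mean of 6.90 to 50.9 CPM (log2 fold change 2.88, SE 0.36, adjusted p = 9.62e-05). Mmp12, the macrophage elastase, which removes ELR motifs from CXC chemokines, averaged 1.38 CPM in M0, 12.4 in M2, 4.66 in CaP and 17.2 in SiO2. It rose in M2 by 3.19 (adjusted p = 1.02e-04), in CaP by 1.83 (adjusted p = 0.0307) and in SiO2 by 3.71 (adjusted p = 0.00231), and was lower in CaP than in SiO2 at a log2 fold change of -1.87 (adjusted p = 0.0478). Against M0 the CaP call was lost without M0 replicate 1 or 3 or CaP replicate 2 or 3 (adjusted p = 0.0622 to 0.233) and without the 3 libraries that stood apart (0.0932), and the SiO2 call without M0 replicate 1 (0.0504). The difference between the rods was lost without any 1 of their libraries (0.0913 to 0.393) and without the 3 libraries (0.126). Of all genes, 0.409% were called for CaP and 0.0602% for SiO2 against M0, and 0.0241% between the rods. Mmp12 was the only gene of the ligand, receptor, route, decay and protease lists called for a rod type against M0.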
